A study of Mus musculus with 16 samples.

Results

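Transcripts of 9 genes that sense, relay or restrain the response to double-stranded RNA were followed in 16 libraries of mouse haematopoietic stem and progenitor cells. The genes were Ddx58, Ifih1, Dhx58, Mavs, Tlr3, Zbp1, Eif2ak2, Adar and Zc3hav1, taken by symbol from the 30141 gene rows of the count files, and all 9 passed the filter on low counts that kept 18341 genes. The cells were LSK cells, lineage-negative marrow cells that carry Sca1 and Kit. Of the 4 groups, 5 libraries came from R882H with azacitidine, 4 from R882H with NaCl, 3 from WT with azacitidine and 4 from WT with NaCl. R882H cells carry mouse WT DNMT3A plus a human DNMT3A R882H allele, placed in the endogenous locus behind a Lox-Stop-Lox cassette and released by Mx1-Cre, and WT cells are mouse WT DNMT3A +/+. Azacitidine, a cytidine analogue that traps DNA methyltransferases, was given at 2.5 mg per kg on 5 days, followed by 2 days off and 5 days on, over 2 weeks, and NaCl was its vehicle. Donors with and without Mx-Cre were given poly(I:C), a synthetic double-stranded RNA and so itself a ligand of several of these sensors, and Mx1-Cre is driven by an interferon-responsive promoter in any cell that responds. The labels give a schedule of 15 µg per g and another of 400 µg per injection without saying which animals had which. Donor marrow was taken 4 weeks later, mixed in equal parts with congenic WT competitor marrow and transplanted. No label states if the sort kept donor cells apart from those of the competitor and the host.

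Double-stranded RNA in the cytosol is bound by RIG-I (Ddx58) and MDA5 (Ifih1), helicases that switch on the mitochondrial adaptor MAVS and through it the transcription factors that make type I interferon. LGP2 (Dhx58) lacks the signalling domains of the other two and tunes them. TLR3 reads double-stranded RNA in endosomes, ZBP1 reads nucleic acids in the Z form and can trigger necroptosis, and PKR (Eif2ak2) phosphorylates eIF2alpha and halts translation. ADAR edits adenosine to inosine in double-stranded RNA, which keeps the cell's own transcripts from setting off MDA5 and PKR, and ZAP (Zc3hav1) binds CpG-rich RNA and has it degraded. In cultured tumour cells, inhibitors of DNA methyltransferases can release silenced repeats whose double-stranded transcripts are read by these sensors, a response called viral mimicry. The comparisons below ask whether the sensor transcripts differed with azacitidine or with the allele.

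Libraries held 35860445 to 56012766 counts. All 10 LSK markers were detected in every library, with Kit at 410 to 1230 CPM (counts scaled by edgeR's TMM-normalised library sizes) and Ly6a, which encodes Sca1, at 30.6 to 275 CPM. Markers of cells the sort should leave out were present at varying levels. Summed per list, the 5 B cell markers ran from 30.9 to 104 CPM, mostly Cd79b (28.6 to 75.7), with Pax5 at 0 in 10 of 16 libraries. The 3 plasma cell markers ran from 89.1 to 2750 CPM, mostly Jchain, and the 6 neutrophil markers from 2 to 617 CPM, with R882H with azacitidine replicate 2 the highest. The 4 plasmacytoid dendritic cell markers ran from 6.09 to 47.1 CPM, mostly Ccr9 and Cox6a2, with Klk1 at 0 in 15 of 16 libraries. The T cell genes stood apart in R882H with NaCl replicate 1, with 22.3 CPM of Cd3d, 31.9 of Cd3g and 41.4 of Trbc2, against at most 2.41, 3.85 and 7.28 CPM in any other library. A second difference went with the library number: the NaCl libraries numbered 1 and 2 differed in cell markers from those numbered 3 and 4. The labels do not explain the numbers, and the split was chosen after earlier results had been seen. In the NaCl groups the summed LSK markers were 2450, 1660, 4750 and 4710 CPM in R882H replicates 1 to 4, and 2960, 2890, 4430 and 4510 CPM in WT replicates 1 to 4. The 7 erythroid markers, led by the transcription factor Klf1, summed to 620, 970, 35.2 and 59.6 CPM in R882H with NaCl, and to 144, 200, 57.3 and 68.2 CPM in WT with NaCl. The highest shares of repeat counts were in WT with azacitidine replicate 1 and in replicate 1 of R882H with NaCl. Nothing in the labels says whether the libraries of a group came from separate animals, so p-values measure the spread between these libraries.

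The adaptor was the most abundant of the 9 transcripts per unit of length, and the endosomal receptor the least. Mavs had a median of 15.8 FPKM over the 16 libraries (11.1 to 19.6), above Dhx58 in all 16 and above 86.4% of all gene rows. Dhx58 followed at 9.03 FPKM (4.59 to 13), ahead of Zc3hav1 at 7.45, Adar at 7.02 and Ddx58 at 6.5 FPKM. Neighbours among these 4 did not keep their order in every library: Dhx58 was above Zc3hav1 in 13 of 16, Zc3hav1 above Adar in 8, and Adar above Ddx58 in 6. Eif2ak2 had a median of 5.69 FPKM, below Ddx58 in 12 libraries and above Ifih1, at 3.01 FPKM, in all 16. Zbp1 lay at 2.53 FPKM, below Ifih1 in 13 libraries. Tlr3 had 0.139 FPKM (0.00951 to 0.351), below Zbp1 in all 16 libraries and above 44.2% of gene rows, so a change in it rests on few reads.

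**Figure D1:**
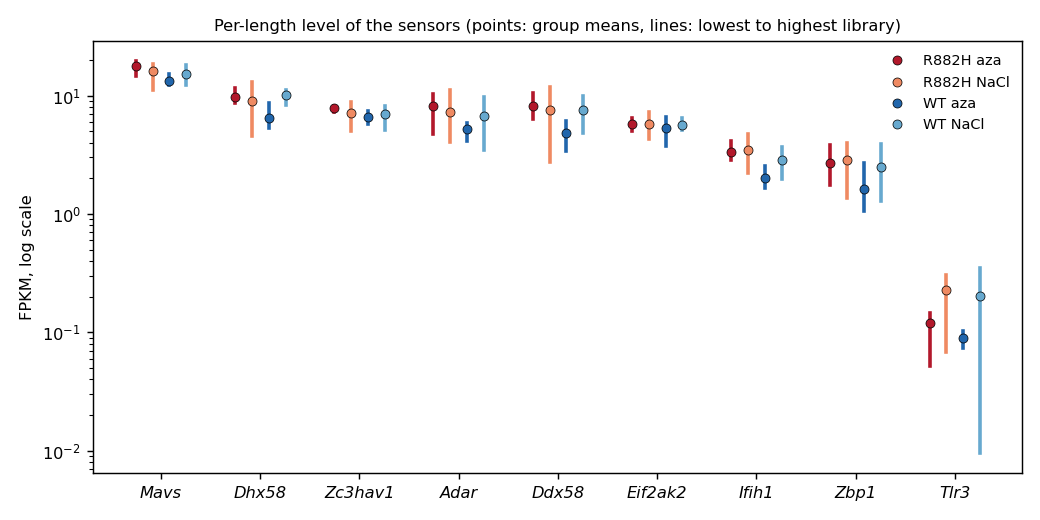
Per-length level of the 9 sensors in FPKM on a log axis, with genes in order of their median over the 16 libraries. Points are group means and lines run from the lowest to the highest library of the 4 groups: Mavs lies above all others at a median of 15.8 FPKM and Tlr3 below all others at 0.139 FPKM, and the lines of the 4 groups overlap for most genes.

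The RIG-I-like helicases differed between libraries of the same group by as much as between groups. Ddx58 (chr4:40203773-40239828, minus strand, GRCm38) had 75.7, 48.6, 47, 63.3 and 62.5 CPM in R882H with azacitidine, against 40.7, 20.9, 86.6 and 72.9 CPM in R882H with NaCl. It had 36.5, 25.7 and 45.3 CPM in WT with azacitidine, against 41, 36.9, 69.8 and 73.5 CPM in WT with NaCl. Both NaCl groups thus held a low pair, replicates 1 and 2, and a high pair, replicates 3 and 4, and the treated groups lay inside that span or partly below it. In bulk samples, fewer cells of a type and less RNA per cell cannot be told apart.

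Ifih1 (chr2:62595798-62646255, minus strand) followed the same split. It had 34.9, 26.5, 24.7, 27.7 and 27.3 CPM in R882H with azacitidine, against 19.9, 21.6, 39.5 and 37.5 CPM in R882H with NaCl. It had 15.5, 14.5 and 22 CPM in WT with azacitidine, against 17.9, 17.4, 30.8 and 30.7 CPM in WT with NaCl. All 5 treated R882H libraries lay between the 2 low and the 2 high R882H controls, and all 5 lay above all 3 treated WT libraries.

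Dhx58 (chr11:100694884-100704271, minus strand) had 38.6, 35.4, 31.6, 29.5 and 30.1 CPM in R882H with azacitidine, against 19.8, 16.2, 42.9 and 43.7 CPM in R882H with NaCl. In WT with azacitidine it had 18.7, 19.3 and 29.7 CPM, against 33.6, 29.1, 37.7 and 38.1 CPM in WT with NaCl. Treated WT replicate 3 was within the WT control range and the other 2 treated WT libraries were below it. An antisense gene, Dhx58os, shares 141 exonic bases with Dhx58 on the other strand, and the sources used here do not state whether counting used strand. Dhx58os itself had at most 0.048 CPM.

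The start sites of the sensors were read because type I interferon acts through a known element in such genes. The windows printed are those that hold a match to it. The windows run from 250 bases before to 50 after the RefSeq start (GRCm38.p6), and capitals mark a match to GAAA followed, after any 2 bases, by GAAA, the core of the interferon-stimulated response element, searched on both strands. No window for Dhx58 or Zbp1 was used here.
Ddx58, chr4:40239776-40240075, minus strand: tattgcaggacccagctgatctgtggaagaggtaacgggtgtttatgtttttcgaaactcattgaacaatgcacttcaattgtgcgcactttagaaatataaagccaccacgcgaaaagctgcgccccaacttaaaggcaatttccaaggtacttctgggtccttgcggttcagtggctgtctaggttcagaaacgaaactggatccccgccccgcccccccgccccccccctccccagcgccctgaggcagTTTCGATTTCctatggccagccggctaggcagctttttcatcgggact
Ifih1, chr2:62646206-62646505, minus strand: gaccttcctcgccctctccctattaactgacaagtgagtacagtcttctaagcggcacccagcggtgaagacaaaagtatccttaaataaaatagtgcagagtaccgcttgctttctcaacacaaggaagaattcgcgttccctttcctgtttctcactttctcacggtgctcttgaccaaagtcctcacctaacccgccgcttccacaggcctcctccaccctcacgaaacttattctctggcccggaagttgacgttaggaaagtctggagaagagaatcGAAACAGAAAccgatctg
Eif2ak2, chr17:78882523-78882822, minus strand: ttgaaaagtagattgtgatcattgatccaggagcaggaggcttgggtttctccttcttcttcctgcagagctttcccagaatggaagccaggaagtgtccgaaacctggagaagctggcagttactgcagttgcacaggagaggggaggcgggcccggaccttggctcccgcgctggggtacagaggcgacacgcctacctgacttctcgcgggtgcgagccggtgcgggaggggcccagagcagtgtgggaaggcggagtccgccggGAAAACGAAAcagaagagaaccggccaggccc
The match in Ddx58 reads TTTCGATTTC, on the opposite strand, and begins 2 bases past the start site. The match in Ifih1 reads GAAACAGAAA and begins 32 bases past it, and that in Eif2ak2 reads GAAAACGAAA and begins 18 bases past it. The windows of Mavs, Tlr3, Zc3hav1 and all 3 of Adar hold no such match. Of 32851 mouse promoter windows of that length, 1131 (3.44%) hold the motif. A match is a description of letters and not a measured binding site, and a window without one says nothing of the factor.

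Mavs (chr2:131234063-131248025, plus strand) relays the signal of both signalling helicases. It had 67.1, 50.9, 66.8, 59.7 and 65.2 CPM in R882H with azacitidine, against 40.6, 56.6, 63.6 and 63.7 CPM in R882H with NaCl. It had 45.2, 53.8 and 43.2 CPM in WT with azacitidine, against 50, 44.2, 62.2 and 55 CPM in WT with NaCl. Of the treated libraries, 4 of 5 R882H ones lay above every treated WT one, and the exception was R882H replicate 2.

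Tlr3 (chr8:45395665-45411080, minus strand), the endosomal receptor, had 0.746, 0.751, 0.282, 0.642 and 0.79 CPM in R882H with azacitidine, against 1.74, 0.385, 1.24 and 1.64 CPM in R882H with NaCl. It had 0.528, 0.406 and 0.565 CPM in WT with azacitidine, against 0.775, 0.0533, 1.87 and 1.71 CPM in WT with NaCl. In both genotypes 3 of the 4 controls lay above every treated library, and control replicate 2 was the exception, at or near the low end. The antisense gene Gm45542, which shares 381 exonic bases with Tlr3, was not analysed here.

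Zbp1 (chr2:173206612-173218923, minus strand), the sensor of Z-form nucleic acid, had 13.8, 8.22, 6.43, 11.5 and 8.77 CPM in R882H with azacitidine, against 15.5, 5.16, 11.1 and 11.1 CPM in R882H with NaCl. It had 3.96, 4.11 and 9.98 CPM in WT with azacitidine, against 4.72, 7.09, 14 and 10.7 CPM in WT with NaCl. Its libraries did not follow the numbers as the helicases did, since R882H with NaCl replicate 1 was the highest of all 16.

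Eif2ak2 (chr17:78852564-78882573, minus strand), which encodes the kinase PKR, had the closest group means of the 9. It had 32.1, 27.8, 26.8, 34.2 and 32 CPM in R882H with azacitidine, against 24, 33, 37.9 and 30.1 CPM in R882H with NaCl. It had 36.3, 20.5 and 30.4 CPM in WT with azacitidine, against 27.2, 30.7, 29.5 and 34.4 CPM in WT with NaCl. All 4 groups overlapped, with the widest spread in treated WT cells. It averaged 30.6 ± 3.14 CPM in R882H with azacitidine (SD, n = 5) and 31.3 ± 5.8 CPM in R882H with NaCl (n = 4). It averaged 29.1 ± 8.02 CPM in WT with azacitidine (n = 3) and 30.4 ± 3.03 CPM in WT with NaCl (n = 4). Gm26637, a non-coding gene on the other strand that shares 174 exonic bases with it, had 3.42 to 8.88 CPM.

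Adar (chr3:89715022-89753446, plus strand) had 85.3, 39.8, 70, 71.1 and 77.6 CPM in R882H with azacitidine, against 35.8, 47.9, 93.3 and 70.6 CPM in R882H with NaCl. It had 50.6, 35.9 and 48.7 CPM in WT with azacitidine, against 42.8, 30.3, 81.2 and 71.6 CPM in WT with NaCl. The R882H library with azacitidine numbered 2 stood well below the other 4 of its group, and the controls again split into a low and a high pair. Chrnb2, which shares 1365 exonic bases with Adar on the other strand, had 0.329 to 1.43 CPM.

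Zc3hav1 (chr6:38305286-38354603, minus strand), the gene of ZAP, had 54.9, 55.3, 55.9, 48.9 and 52.3 CPM in R882H with azacitidine, against 36.1, 44.5, 59.4 and 54.6 CPM in R882H with NaCl. It had 46.6, 39.7 and 51.5 CPM in WT with azacitidine, against 48.4, 36.2, 54.9 and 50.4 CPM in WT with NaCl. Every group overlapped every other. For Ddx58, Ifih1, Dhx58, Mavs, Adar and Zc3hav1, 6 of the 9 genes, the NaCl libraries numbered 1 and 2 were all below those numbered 3 and 4 in both genotypes, a pattern that 18.3% of the 18341 genes tested also showed. The lower sensor levels of these libraries went with lower summed LSK markers and higher erythroid markers, and the part of these in the result was not tested.

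**Figure D2:**
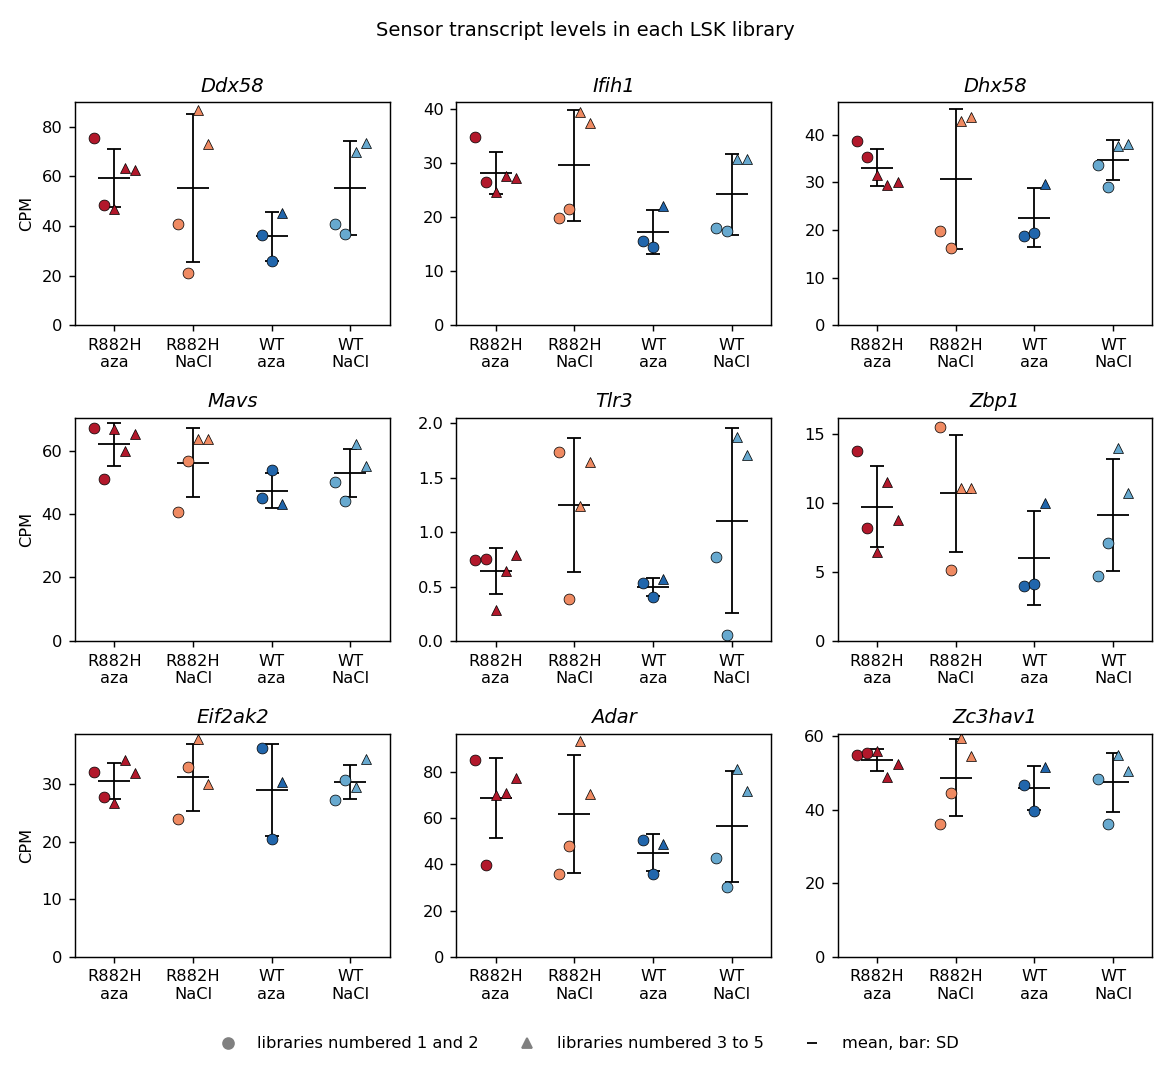
Level of each sensor in CPM in every library, in 4 groups (R882H with azacitidine, R882H with NaCl, WT with azacitidine, WT with NaCl), with circles for libraries numbered 1 and 2 and triangles for those numbered 3 to 5. Horizontal marks are group means and bars SD; in both NaCl groups the circles of Ddx58, at 20.9 to 41 CPM, lie below the triangles, at 69.8 to 86.6 CPM.

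Azacitidine went with no uniform shift of the sensors in R882H cells. The log2 difference of azacitidine against NaCl was above 0 for Ddx58, Dhx58, Mavs, Adar and Zc3hav1 and below 0 for the other 4, with a median of 0.10 against -0.04 over all genes, of which 44.3% were above 0. The estimate nearest to 0 was that of Eif2ak2, -0.03 (95% interval -0.40 to 0.33), and the farthest was that of Tlr3, -0.96 (-2.28 to 0.36). Mavs, at 0.14, had an interval of -0.18 to 0.47, and Zc3hav1, at 0.14, one of -0.19 to 0.47. Ddx58 had 0.10 (-0.61 to 0.82), so these libraries leave any difference inside that interval possible. By edgeR's quasi-likelihood test with Benjamini-Hochberg adjustment over all genes, 0 of 9 passed, where 0.00545% of genes did, and the adjusted p ran from 0.801 to 0.976. None of the 9 reached an unadjusted p under 0.05, which 6.69% of all genes did, and none had groups without overlap, against 1.57%. DESeq2 called 0 of 9 and 0.506% of genes. The 7 erythroid markers summed to 59.1 to 103 CPM in R882H with azacitidine, against 35.2 to 970 CPM in R882H with NaCl. All 7 estimates were below 0, with a median of -2.81. All 7 reached an unadjusted edgeR p under 0.05, against 4.45% of all genes lower. T and NK cell markers, mostly Nkg7, summed to 346 to 533 CPM, against 239 to 517 CPM. Of these, 6 of 7 estimates were below 0, and 5 of 7 reached that level, all lower. The T cell genes were highest in R882H with NaCl replicate 1. No marker of either list passed after adjustment, and the part of either list in the result was not tested.

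The direction in R882H cells depended on which libraries were set against each other. Within libraries numbered 1 and 2, 8 of 9 estimates were above 0, as were 48.4% of all genes, and within those numbered 3 to 5, 8 of 9 were below 0, as were 47.9%. Dhx58 had 1.04 in the first set (edgeR adjusted p = 0.00668) and -0.51 in the second (edgeR adjusted p = 0.544). Ddx58 had 1.01 and -0.47 (adjusted p = 0.0575 and 0.982 by edgeR), and Ifih1 had 0.56 and -0.54 (adjusted p = 0.0685 and 0.566). Mavs, with 0.28 and 0.01, was above 0 in both sets, and Tlr3, with -0.50 and -1.33, was below 0 in both. Within numbers 1 and 2 the fit called 1792 genes in all, 9.77% of those tested, of which Dhx58 was the 1 sensor, and within numbers 3 to 5 it called 0. The difference between the sets was itself not tested. The sets were chosen after these data had been seen, so p-values within them are a description only. Without R882H with NaCl replicate 2 alone, 6 of the 9 estimates over all libraries were below 0, and without replicate 3 of that group 7 were above 0. Without the 2 libraries of highest repeat share, 3 were above and 6 below 0, with a median of -0.04.

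**Figure D3:**
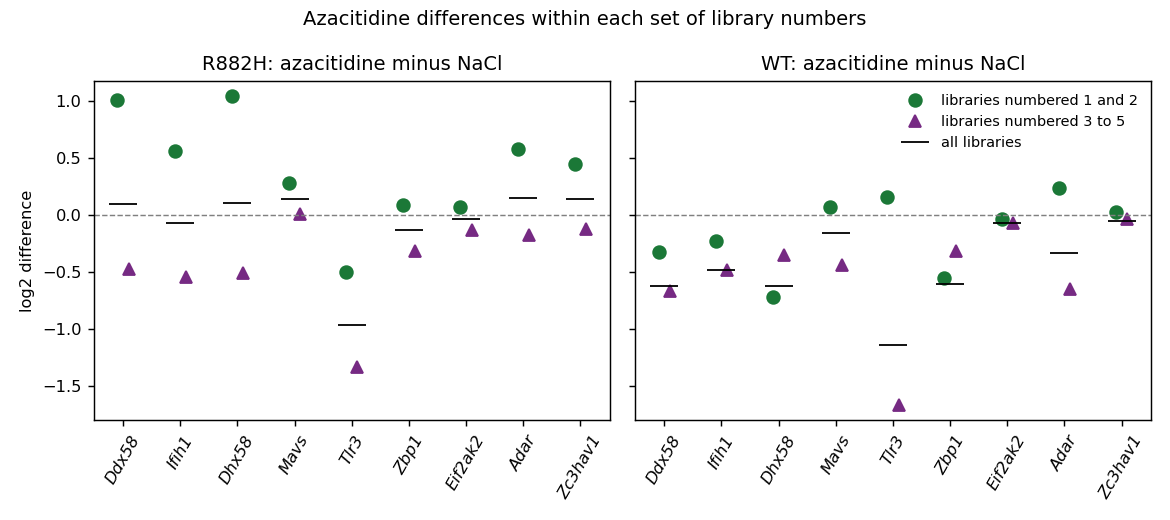
Log2 difference of azacitidine against NaCl for each sensor, in R882H cells (left) and WT cells (right), within libraries numbered 1 and 2 (circles), within libraries numbered 3 to 5 (triangles) and over all libraries (horizontal marks). In R882H cells 8 of 9 circles lie above 0 and 8 of 9 triangles below 0, Dhx58 at 1.04 and -0.51; in WT cells the triangles rest on 1 treated library.

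In WT cells all 9 estimates of azacitidine against NaCl were below 0, none past the threshold. The median log2 difference was -0.48, against 0.01 over all genes, of which 48.1% were below 0. Dhx58 stood at 22.5 ± 6.2 CPM with azacitidine (SD, n = 3) and 34.6 ± 4.24 CPM with NaCl (n = 4). Its difference was -0.62 (SE 0.30, edgeR adjusted p = 0.833), with 2 of 3 treated libraries below every control. Ddx58 had -0.62 (SE 0.39), Ifih1 -0.48 (SE 0.28), Zbp1 -0.60 (SE 0.44) and Tlr3 -1.14 (SE 0.74). The effector and editing genes lay closer to 0, with Adar at -0.33 (SE 0.35), Eif2ak2 at -0.07 (SE 0.20) and Zc3hav1 at -0.05 (SE 0.18), and Mavs had -0.16 (SE 0.17). For edgeR 0 of 9 passed, against 0% of all genes, and 0 of 9 reached an unadjusted p under 0.05, against 6.02%. For none of the 9 were the treated libraries all on one side of the controls, as they were for 5.73% of genes. The LSK markers behaved alike, with 9 of 10 estimates below 0, a median of -0.29 and sums of 2510 to 3170 CPM in WT with azacitidine, against 2890 to 4510 CPM in WT with NaCl. The plasmacytoid dendritic cell markers summed to 12.1, 15.3 and 11 CPM in WT with azacitidine, against 24.9, 33.9, 16.4 and 15.7 CPM in WT with NaCl, without overlap, and all 3 of them that were tested had estimates below 0. Other lists went the other way. All 7 T and NK cell markers had estimates above 0, with a median of 0.56. All 6 neutrophil markers did too, with a median of 1.19, and summed to 35.5 to 316 CPM in WT with azacitidine, against 13.7 to 107 CPM in WT with NaCl. The part of any of these lists in the sensor estimates was not tested.

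The 9 estimates are not independent, since a library low in one helicase was usually low in the others. Treated WT replicates 1 and 2 held the lowest Dhx58 of WT cells, and replicate 3 stood at the edge of the controls. Within numbers 1 and 2, 5 of 9 estimates were below 0, against 47.5% of genes, and Dhx58 had -0.72 (edgeR adjusted p = 0.25). Within numbers 3 to 5 all 9 were below 0, against 50.6% of genes, but that set holds 1 treated WT library, which the fit takes to vary like the other groups. Without the 2 libraries of highest repeat share all 9 stayed below 0, with a median of -0.41. Leaving out single libraries moved the median of the 9 estimates between -0.69 and -0.32, and Dhx58 between -0.87 and -0.50.

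The difference between the azacitidine responses of the genotypes was tested directly. For all 9 sensors the response was more positive in R882H than in WT cells, with a median of 0.41 on the log2 scale against -0.05 over all genes, 46% of which were above 0. Ddx58 had 0.73 (95% interval -0.36 to 1.82) and Dhx58 0.73 (-0.12 to 1.57), the sensor with the lowest p of the 9 (edgeR adjusted p = 0.763). Adar had 0.48 (SE 0.47), Zbp1 0.47 (SE 0.58), Ifih1 0.41 (SE 0.37) and Mavs 0.30 (SE 0.23). Zc3hav1 had 0.19, Tlr3 0.18 and Eif2ak2 0.03. None of the 9 passed, against 0% of all genes, and none reached an unadjusted p under 0.05, against 6.07%. Within numbers 1 and 2 Dhx58 had 1.76 (edgeR adjusted p = 0.0112) and was 1 of 462 genes called, 2.52% of those tested. That split was chosen after these data had been seen, so the p-value is a description only. Within numbers 3 to 5, where WT has 1 treated library, Dhx58 had -0.16, and the difference between the sets was not tested. The LSK markers also had 10 of 10 estimates above 0 in this comparison, with a median of 0.33. Without the 2 libraries of highest repeat share all 9 sensor estimates were above 0, with a median of 0.39. With 1 library left out at a time the median ran from 0.21, without WT with NaCl replicate 3, to 0.57. Without WT with NaCl replicate 4 it was 7 of 9 that were above 0, and any other single library left out gave 8 or 9. A term for the number set left 7 of 9 above 0, and within numbers 3 to 5 it was 4 of 9, with a median of -0.01.

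With azacitidine, R882H cells held more of every sensor than WT cells by the estimate, and for the 2 signalling helicases the groups did not overlap. Ifih1 averaged 28.2 ± 3.89 CPM in R882H with azacitidine (SD, n = 5) and 17.4 ± 4.06 CPM in WT with azacitidine (n = 3), a 1.62-fold difference. On the log2 scale this was 0.70 (SE 0.27, 95% interval 0.12 to 1.28, edgeR adjusted p = 0.533), with every R882H library above every WT library. Ddx58 averaged 59.4 ± 11.8 CPM in R882H and 35.9 ± 9.82 CPM in WT, a log2 difference of 0.73 (SE 0.38, edgeR adjusted p = 0.54), again without overlap. Mavs averaged 61.9 ± 6.88 CPM in R882H and 47.4 ± 5.63 CPM in WT, a difference of 0.39 (SE 0.17, edgeR adjusted p = 0.533), with overlap. Groups that did not overlap, with R882H higher, were thus seen for 2 of 9 sensors and for 5.05% of all genes. Counting both directions, 10.7% of all genes had groups without overlap. An unadjusted p under 0.05 with R882H higher was reached by 2 of 9, Ifih1 and Mavs, and by 2.65% of all genes, or 9.34% in either direction. None of the 9 passed after adjustment, where 0.00545% of genes did.

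The remaining 6 sensors under azacitidine had estimates of 0.69 for Zbp1 (SE 0.42), 0.61 for Adar (SE 0.34), 0.55 for Dhx58 (SE 0.29), 0.36 for Tlr3 (SE 0.71), 0.22 for Zc3hav1 (SE 0.17) and 0.07 for Eif2ak2 (SE 0.19). The median of all 9 was 0.55, against -0.02 over all genes, 47.9% of which were above 0. Within numbers 1 and 2 all 9 estimates were above 0, against 47% of genes, and Ifih1 (1.03) and Dhx58 (0.96) passed, each with an edgeR adjusted p of 0.031. They were 2 of 230 genes called there, 1.25% of those tested. The number sets were chosen after these data had been seen, so p-values within them are a description only. Within numbers 3 to 5, where WT has 1 treated library, Ifih1 had 0.27, Dhx58 0.03 and Zbp1 -0.16. The median of the 9 was 0.03 in that set and 0.68 within numbers 1 and 2. Mavs was 0.56 within numbers 3 to 5 and 0.25 within numbers 1 and 2. Without the 2 libraries of highest repeat share all 9 estimates were above 0, with a median of 0.45. All 10 LSK markers had estimates above 0 as well, with a median of 0.59, and they summed to 2850 to 3980 CPM in R882H with azacitidine, against 2510 to 3170 CPM in WT with azacitidine. T and NK cell markers, mostly Nkg7, summed to 346 to 533 CPM in R882H with azacitidine, against 388 to 852 CPM in WT with azacitidine. Plasma cell markers summed to 857 to 2070 CPM in R882H with azacitidine, against 147, 443 and 1610 CPM in WT with azacitidine. Neutrophil markers summed to 2 to 8.58 CPM in 4 of the 5 R882H libraries and 617 CPM in replicate 2, against 35.5 to 316 CPM in WT. Their part in the difference was not tested.

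With NaCl no sensor passed between the genotypes. Ifih1 averaged 29.6 ± 10.3 CPM in R882H with NaCl and 24.2 ± 7.58 CPM in WT with NaCl (SD, n = 4 each), a log2 difference of 0.29 (95% interval -0.26 to 0.84). Ddx58 averaged 55.3 ± 29.9 CPM in R882H and 55.3 ± 19 CPM in WT, a difference of 0.00 (-0.75 to 0.75). Dhx58 had an estimate of -0.18 (-0.76 to 0.41), and the other 7 were above 0, as 54.2% of genes were, from 0.03 for Zc3hav1 to 0.29 for Ifih1. None of the 9 passed in edgeR, where 0.00545% of genes did, the adjusted p was 0.999 or 1, and none reached an unadjusted p under 0.05, against 5.59% of genes, or had groups without overlap, against 1.97%. Within numbers 1 and 2 Dhx58 had -0.80 (edgeR adjusted p = 0.0345), 1 of 432 genes called there (2.36%), and within numbers 3 to 5 it had 0.19 (adjusted p = 1). The number sets were chosen after these data had been seen, so p-values within them are a description only. Over all NaCl libraries, 7 of 7 erythroid markers had estimates above 0, with a median of 1.24. An unadjusted edgeR p under 0.05 was reached by 2 of them, both higher. Of 7 T and NK cell markers, 6 were above 0 (median 2.60) and 5 reached that level, 4 of them higher. Their part in the sensor estimates was not tested. The 5 comparisons share groups of libraries, so the signs in one are not independent of those in another.

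**Figure D4:**
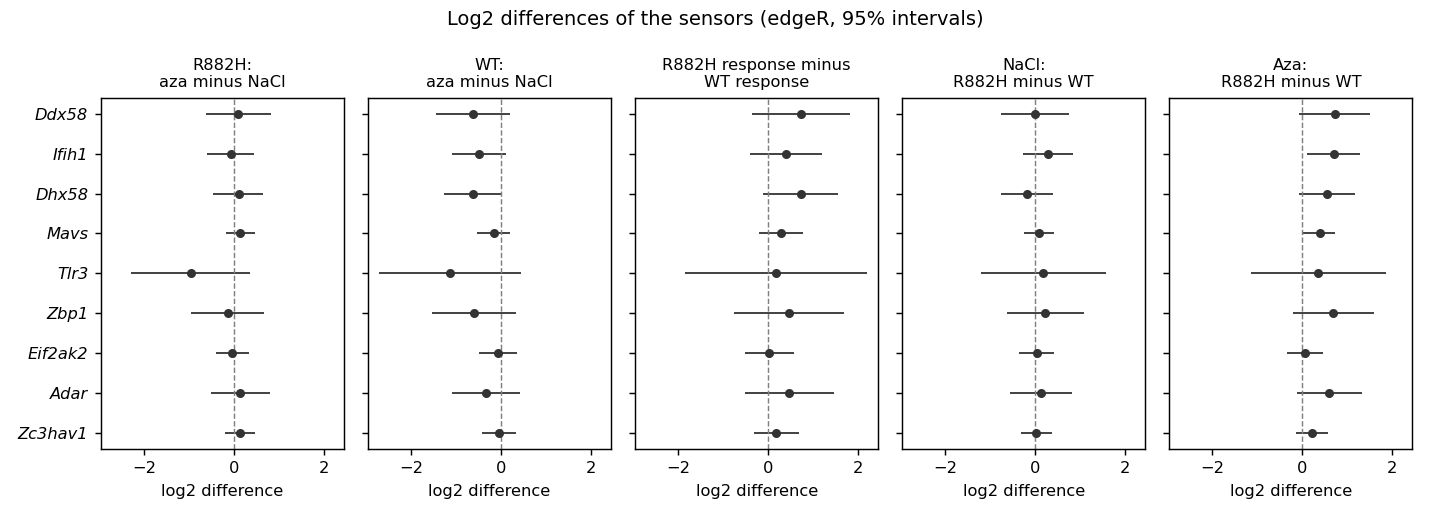
Log2 differences of the 9 sensors with 95% intervals from edgeR, for azacitidine minus NaCl in R882H and in WT cells, for the R882H response minus the WT response, and for R882H minus WT with NaCl and with azacitidine. Every interval covers 0 except those of Ifih1 (0.12 to 1.28) and Mavs (0.03 to 0.74) for R882H minus WT with azacitidine.

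Other genes of the pathway were read from lists chosen by function, and no member of any list passed in any of the 5 comparisons. Of 29 tested genes of the type I interferon system, which act downstream of the sensors, 26 had estimates below 0 for azacitidine in WT cells, with a median of -0.37, where 48.1% of all genes were below 0. An unadjusted p under 0.05 was reached by 8 of them, all lower, against 2.03% of all genes lower. In R882H cells 13 were above 0 and 16 below, with a median of -0.03, and 2 reached that level, both lower, against 4.45% of all genes lower. Under azacitidine 23 of 29 were above 0 for R882H against WT, with a median of 0.32, where 47.9% of all genes were above 0, and 8 reached it, all higher, against 2.65% of all genes higher. Plasmacytoid dendritic cells make much interferon and hold Irf7, and the part here of their markers, whose sums in treated and control WT cells are given above, was not tested. Cxcl10, a chemokine induced by interferon, had 0.168, 0 and 0.847 CPM in WT with azacitidine, against 2.89, 2.05, 1.9 and 1.64 CPM in WT with NaCl, so the groups did not overlap (edgeR adjusted p = 0.802). Ifit3, an RNA-binding antiviral protein, had 0.432, 0.379 and 1.8 CPM in WT with azacitidine, against 4.93, 2.4, 5.24 and 5.27 CPM in WT with NaCl (log2 difference -2.36, SE 0.54, edgeR adjusted p = 0.639). Both also had lower means with azacitidine in R882H cells, with overlap. Ifit3 averaged 2.25 CPM in R882H with azacitidine (1.39 to 3.67), against 4.59 CPM in R882H with NaCl (2.9 to 6.58). Cxcl10 averaged 1.48 CPM (0.617 to 2.2), against 2.63 CPM (1.57 to 4.63). Ifit3 has a near-identical copy in the mouse genome, so its counts are uncertain.

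Of the 22 genes between the helicases and the interferon genes (the RLR and MAVS signalling list), 11 were above and 11 below 0 for azacitidine in WT cells, and likewise in R882H cells. Irf7, an interferon-induced transcription factor that drives further interferon genes, was the exception by p. It had 20.2, 21.2 and 35.7 CPM in WT with azacitidine, against 52, 42.2, 54.4 and 47.1 CPM in WT with NaCl (log2 difference -0.93, SE 0.25, edgeR adjusted p = 0.656), without overlap. In R882H cells it had 53, 48.3, 43.2, 34.8 and 32.1 CPM with azacitidine, against 39.6, 29.1, 50.4 and 50.3 CPM with NaCl, and the responses differed by 0.93 (SE 0.32, edgeR adjusted p = 0.763). Traf5, a signalling adaptor, had 0.59 for R882H against WT under azacitidine (SE 0.23, edgeR adjusted p = 0.533). Its groups did not overlap, as was so for 10.7% of all genes in that comparison.

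The other double-stranded RNA genes gave no common direction for azacitidine in WT cells, where 48.1% of all genes were below 0. Of 11 genes of the OAS list, another antiviral branch that double-stranded RNA activates, 9 were below 0 for azacitidine in WT cells, with a median of -0.22, among them Oasl1 at -0.74 (SE 0.25, edgeR adjusted p = 0.825). For TLR3 and ZBP1 signalling, 7 of 9 genes were below 0 for azacitidine in WT cells, with a median of -0.02. In R882H cells 7 of these 9 were above 0 for azacitidine, with a median of 0.21, where 44.3% of all genes were above 0. The chaperone Unc93b1, which carries TLR3 to endosomes, had 207 to 246 CPM in R882H with azacitidine, against 164, 103, 171 and 205 CPM in R882H with NaCl (0.48, SE 0.17, edgeR adjusted p = 0.564). Mlkl, the executor of necroptosis, had 59.3 to 62.1 CPM in R882H with azacitidine, against 34.7, 33.6, 53.4 and 57.3 CPM in R882H with NaCl (0.44, SE 0.18, edgeR adjusted p = 0.684). For PKR and eIF2alpha genes, 8 of 11 were above 0 for azacitidine in WT cells, with a median of 0.08. For R882H against WT with NaCl 10 of 11 were above 0, with a median of 0.17, where 54.2% of all genes were above 0. Atf4, the transcription factor translated when eIF2alpha is phosphorylated, had -0.61 for R882H against WT under azacitidine (SE 0.23, edgeR adjusted p = 0.533), without overlap. Of the double-stranded RNA binding, editing and processing genes, 16 tested, 11 were below 0 for azacitidine in WT cells with a median of -0.05. Zfr, a double-stranded RNA-binding protein, had 0.41 for R882H against WT under azacitidine (SE 0.15, edgeR adjusted p = 0.533), again without overlap. Of 10 ZAP partners and PARPs, 5 lay on each side for azacitidine in WT cells. The ZAP paralogue Zc3hav1l had -0.72 for R882H against WT under azacitidine (SE 0.27, edgeR adjusted p = 0.533). It had 19.6, 9.26 and 9.29 CPM in WT with azacitidine, against 5.55 to 9.07 CPM in R882H with azacitidine. The groups thus did not overlap, but 2 of the WT libraries lay close to the R882H range. In this comparison 10.7% of all genes had groups without overlap. Of 9 DNA and other nucleic acid sensors, 6 were above 0 for azacitidine in WT cells, with a median of 0.01. In R882H cells the DNA sensor Cgas had 0.42 (SE 0.17, edgeR adjusted p = 0.661) and its adaptor Tmem173, which encodes STING, 0.43 (SE 0.20, edgeR adjusted p = 0.738), both with overlap. With NaCl, R882H replicates 1 to 4 had 15.2, 14.8, 24.1 and 18.3 CPM of Cgas and 110, 68.7, 154 and 172 CPM of Tmem173. Replicates 1 and 2 were thus the low pair for both, as for Unc93b1 and Mlkl, and the part of that split was not tested.

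After the mean of each group was subtracted, the RIG-I-like helicases moved together between libraries. Over the 16 libraries the Pearson r of log2 CPM was 0.88 between Ddx58 and Ifih1, 0.85 between Ddx58 and Dhx58 and 0.85 between Ifih1 and Dhx58. Adar was close to Ifih1, at 0.83, and Mavs to Adar, at 0.78, whereas Mavs and Zbp1 had -0.03. Eif2ak2 had 0.42 with Ddx58, 0.47 with Ifih1 and 0.25 with Dhx58. These values describe the libraries, which share depth, cell makeup and the split by number, and no p is given. Of all 18341 genes tested, those most like Ddx58 were Csrnp1, Lima1 and Pde8a, each at 0.98. For Ifih1 they were Tek (0.96), Cadps2 (0.96) and Cx3cl1 (0.95), and for Dhx58 Oasl2 (0.98), Cyp2j9 (0.97) and Rab33b (0.96). For Mavs they were Mark2 (0.97), Ddx54 (0.96) and Ap3m1 (0.96). Tlr3 had Rhov (0.90), Porcn (0.89) and Sh3bgrl2 (0.89), and Zbp1 had Gm4841 (0.96), Tcf7l1 (0.95) and Gbp8 (0.95). Eif2ak2 was nearest to Synj1 (0.92), Lmtk2 (0.91) and Taf1 (0.91). Adar was nearest to Myo1c (0.97), Usp19 (0.97) and Dcun1d4 (0.96), and Zc3hav1 to Fam83h (0.95), Rbm24 (0.93) and Pxk (0.92). No other sensor was among the 3 nearest genes of any of the 9, and Oasl2 was the 1 gene of these in a pathway list.

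For the share of counts on the 1201 repeat rows, no comparison of groups passed. These rows take in the repeats that viral mimicry draws on and also rRNA. The smallest exact permutation p that any of the 4 comparisons allows is 0.0159, for azacitidine in R882H cells. With groups this small, no comparison alone could reach an adjusted p under 0.05. The share was 3.46, 4.34, 4.27, 4.27 and 3.83% in R882H with azacitidine, against 6.81, 3.77, 3.72 and 3.9% in R882H with NaCl. It was 10.1, 4.03 and 5.35% in WT with azacitidine, against 3.64, 5.21, 2.97 and 4.2% in WT with NaCl. The highest value came from WT with azacitidine replicate 1 and the next from R882H with NaCl replicate 1, and these held the 2 highest rRNA shares, 3.41 and 1.77% of counts. In R882H cells the difference of azacitidine against NaCl was -0.514 percentage points (exact two-sided permutation p = 0.778, adjusted p = 0.778 over 4 comparisons). In WT cells it was 2.48 points (exact p = 0.229, adjusted p = 0.457), where the smallest p that 3 against 4 libraries allow is 0.0571. Under azacitidine R882H was lower than WT by estimate, at -2.45 points (exact p = 0.143, adjusted p = 0.457), and with NaCl the difference was 0.545 points (exact p = 0.629, adjusted p = 0.778). Without the rRNA rows the differences were -0.163 points for azacitidine in R882H, 1.43 for azacitidine in WT, -1.24 for genotype under azacitidine and 0.357 for genotype with NaCl (exact permutation tests, adjusted p = 0.571 or 0.794). Without R882H with NaCl replicate 1 the difference in R882H cells was 0.239 points and that between genotypes with NaCl -0.208 points. How reads that map to many places were counted is not given in the sources used here, and double-stranded RNA itself was not measured.

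**Figure D5:**
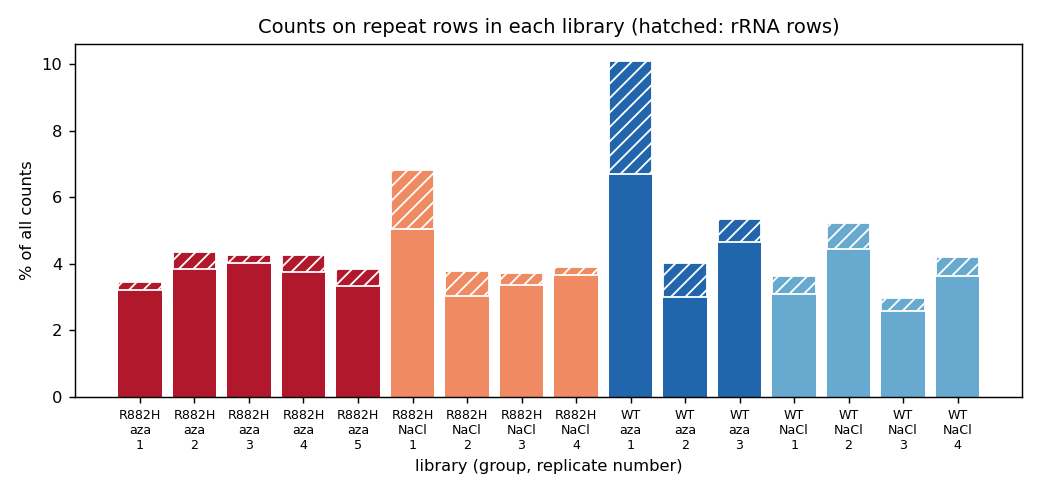
Percent of all counts on repeat rows in each of the 16 libraries, from R882H with azacitidine at the left to WT with NaCl at the right, with the part on rRNA rows hatched. Bars start at 0; WT with azacitidine replicate 1 reaches 10.1% and R882H with NaCl replicate 1 6.81%, and the other 14 libraries lie between 2.97 and 5.35%.

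Libraries with a higher repeat share held less Mavs transcript. Over the 16 libraries, 8 of 9 sensors had a negative Pearson r between log2 CPM and repeat share, and Eif2ak2 had 0.12. The relation was not computed for other genes, so no share over all genes can be set beside these counts. Whether it is particular to the sensors was not tested. Mavs had the strongest relation, with r = -0.66 (permutation p = 0.00158, adjusted p = 0.0142 over the 9 sensors) and Spearman's rho = -0.66 (permutation p = 0.00686, adjusted p = 0.0617). Without the 2 libraries farthest from the median share, Mavs had r = -0.72 (permutation p = 0.00396, adjusted p = 0.0356), and after subtraction of group means -0.60. Within libraries numbered 1 and 2 it had r = -0.64 (permutation test, adjusted p = 0.818), and within those numbered 3 to 5 -0.75 (adjusted p = 0.18), so the call did not hold within either set of 8. Ifih1 had r = -0.54 (permutation p = 0.0215, adjusted p = 0.0803) and -0.40 without the 2 farthest libraries. Dhx58 had r = -0.53 (permutation p = 0.0268, adjusted p = 0.0803) and -0.18 without them, so its relation rested on those libraries. Adar had -0.38, Zc3hav1 -0.40, Ddx58 -0.31, Zbp1 -0.29 and Tlr3 -0.15, none past the threshold. Both measures come from the same libraries and share their depth and preparation.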

How the data were processed

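RNA of sorted LSK cells was amplified with a low-input cDNA kit and RNA of low integrity was left out, per the labels' protocols. The authors' deposited files hold raw counts per gene and repeat family, from alignment by HISAT2 (version 2.0.5) to GRCm38 and counting by featureCounts (version 1.6.2), per the submitters' processing notes. The length in bases beside each deposited count is another measurement, used only as FPKM's divisor. The deposited FPKM values equal those counts over length and 1 library size per library, and rank genes here. Coordinates are of GENCODE M21. No 2 libraries of a group were copies: the lowest chi-square per gene of 25 pairs was 42.0.

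Genes kept by filterByExpr were fitted with edgeR 4.0.16 in R 4.3.3 (TMM, quasi-likelihood, 1 coefficient per group, all 16 libraries, common dispersion 0.166), checked on simulated data. An adjusted p under 0.05 over 18341 genes was a call. All 9 sensors are named, genes among the 2 of lowest p in a pathway list and comparison, and the 3 genes most like each sensor (log2 CPM, prior count 2). The sensors and lists were chosen with earlier results of these data known. Repeat shares were compared with exact permutation tests and correlations with 100000 permutations (scipy 1.17.1). Alternatives were RLE size factors, no filter, DESeq2 1.42.0, a replicate block, a term for the number set, subsets of libraries and repeat shares without rRNA or structural RNA. The labels name no molecular identifiers.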

Additional observations from a re-analysis of the deposited data

Results flagged for a closer look

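The repeat share of R882H with NaCl replicate 1, 6.81% of counts, stood apart from the other 3 libraries of its group, at 3.72 to 3.9%. Its gap to the nearest of them was 0.94 of the group's range. It was the 1 such library among 30 values-in-groups examined (9 sensors and the repeat share in the 3 groups of 4 or 5 libraries), and chance marks about 1 in 20. In that library Ddx58 had 40.7, Ifih1 19.9 and Mavs 40.6 CPM, and Zbp1, at 15.5 CPM, was the highest of all libraries. The T cell genes Cd3d, Cd3g and Trbc2, at 22.3, 31.9 and 41.4 CPM, were also highest there, and their part was not tested. The group of 3, WT with azacitidine, was not examined in this way.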

How the results depend on the processing

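Calls among all genes, in the order R882H azacitidine against NaCl, WT azacitidine against NaCl, difference of responses, R882H against WT with NaCl and R882H against WT with azacitidine, were 1, 0, 0, 1 and 1. RLE size factors gave 1, 0, 0, 1 and 1, no filter gave 0 in each, DESeq2 96, 55, 16, 35 and 20, and fits without the 2 libraries of highest repeat share gave 0 in each. Fits of only the libraries compared gave 0 in 4 comparisons and were not run for the difference of responses, which uses all libraries. A term for the number set gave 2, 0, 0, 2 and 0. The fit with a replicate block gave 0, 0, 0, 1 and 0, and no sensor passed in it; same-numbered libraries had correlations of -0.12 to 0.34, over 0.1 in 8 of 21 pairs, and 6 of 16 libraries correlated best with their own number, and the labels do not say that a number marks a shared origin. Within numbers 1 and 2 the calls were 1792, 4, 462, 432 and 230, and within numbers 3 to 5 they were 0, 2, 2, 2 and 0; these 2 fits were added after seeing the data. Sensors called within numbers 1 and 2 were 1, 0, 1, 1 and 2, and in every other fit 0. Leaving out each replicate in turn gave 0 to 1, 0 to 7, 0 to 0, 0 to 1 and 0 to 1 genes, the 7 without WT with azacitidine replicate 3. Of 1116 recomputed sensor differences 76 changed sign, 24 of them within number sets. The 9 of 9 estimates below 0 in WT cells became 7 without WT with azacitidine replicate 2 and 8 without WT with NaCl replicate 3 or 4, the 9 of 9 above 0 for the difference of responses became 7 with the replicate block or a term for the number set, and the 9 of 9 above 0 for R882H against WT with azacitidine became 8 without WT with azacitidine replicate 2. Outside the number sets the lowest adjusted p of any sensor was 0.121, for Ifih1 between genotypes with azacitidine when only those libraries were fitted.

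Repeat share differences without R882H with NaCl replicate 1, or without both libraries of highest repeat share, turned to 0.239 points in R882H cells and -0.208 points between genotypes with NaCl. Single libraries left out gave -0.792 to 0.239, 0.683 to 3.72, -0.208 to 0.947 and -3.69 to -0.652 points for azacitidine in R882H, azacitidine in WT, genotype with NaCl and genotype with azacitidine. The 1 sensor past the threshold against repeat share became 0 within each number set. Groups of 3 to 5 libraries limit every comparison, and Tlr3, under 2 CPM, is limited by depth.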
